A study of Drosophila melanogaster with 15 samples.

Results

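The genes described here are InR, chico, foxo, Thor, ImpL2 and Akt of Drosophila melanogaster, which act in insulin signalling from the receptor to the FOXO transcription factor and its targets. They were read on Affymetrix arrays of whole larvae, in 5 groups of 3 arrays. A gene's probe sets (groups of short oligonucleotides that together give 1 signal for a transcript) were taken by the gene symbol in the array's annotation. This gave 5 probe sets of the 14010 on the array, 1 each for InR (143734_at), chico (152360_at), Akt (141791_at), foxo (149870_at) and ImpL2 (141688_at). No probe set carries the symbol Thor in that annotation. Probe set 153432_at is unnamed there, but the RefSeq gene table lists this identifier among the synonyms of Thor. It is described below as the Thor probe set and stays out of every count of the 5 members, because it was added after the files were seen. Of 113 probe sets that both sources name, all 113 had the RefSeq gene among the annotation's symbols. RefSeq lists 20 more that the annotation does not name, 153432_at among them, so that check does not cover them.

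Insulin signalling couples feeding to growth in fly larvae. Insulin-like peptides released from neurons bind the receptor InR, which acts through the adaptor Chico and phosphatidylinositol 3-kinase to activate the kinase Akt. Akt keeps the transcription factor FOXO out of the nucleus. When the pathway is quiet, FOXO enters the nucleus and raises the transcription of targets such as Thor, which encodes an inhibitor of translation initiation, and InR itself. ImpL2 is a secreted protein that binds insulin-like peptides and holds them from the receptor. In flies the fat body is both the main insulin-responsive store and the main source of antimicrobial peptides, which the NF-kappaB factors Relish, Dif and dorsal switch on after infection.

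Larvae of the third instar were used. The groups were wild type larvae injected with PBS, wild type larvae injected with E. coli, and larvae of the Relish E20, Dif1 and Dorsal1 mutant stocks, all 3 with E. coli per their treatment text. Each array held RNA from 20 pooled larvae collected 2 h after about 0.1 microliter was injected. The labels do not tell whether pools of 1 group were raised in separate cultures. By title, PBS replicates 2 and 3 share a number. So do wild type E. coli replicates 2 and 3, and dorsal replicates 1 and 2. What a shared number stands for is not given, so these arrays may not be independent. The titles of all 9 mutant arrays hold the letters used for the PBS controls; the groups here go by the treatment text, and the conflict was not settled. That the other 6 arrays are wild type follows from the series design. Mutants injected with PBS were not analysed here, so effects of a mutation, of a stock and of the bacteria in that stock cannot be told apart. RNA came from whole larvae, so fewer cells of a type and less RNA per cell cannot be told apart either.

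The deposited values are signals on a linear scale, scaled to the same trimmed mean on every array. A total of 11427 probe sets with a signal of at least 160 on at least 3 arrays were tested, among them all 5 members. Rel, the gene of the Relish factor, read 18.9, 11.4 and 27.4 in the Relish mutant against 4981, 3095 and 3329 in E. coli-injected wild type larvae. With PBS it read 807, 664 and 722. The Dif arrays read 1092, 1191 and 1273, and the dorsal arrays 1187, 373.5 and 1307. The 6 Dif and dorsal arrays thus lay below all 3 wild type E. coli arrays and nearer in signal to the PBS arrays. All 3 Dif arrays and dorsal replicates 1 and 3 lay above every PBS array, and dorsal replicate 2 lay below. In the Relish mutant Rel is itself the mutated gene, so its low signal does not tell which injection those arrays received. Whether the mutant arrays received E. coli, as their treatment text has it, or PBS, as the letters in their titles would have it, cannot be told apart from a lower Rel response in the mutants. Every comparison of a mutant with wild type below goes by the treatment text. The transcripts of Dif and dl do not check the labels of their mutants. The 5′ signal of the actin, eIF-4a and GAPDH control transcripts, a measure of RNA integrity and labelling length, lay between 13.0% and 36.6% of their 3′ signal. On wild type PBS replicate 1 the bacterial BioB control averaged 132 against 1139 to 2679 on the other arrays. Summed salivary glue signals spanned 18214 to 252831 in E. coli-injected wild type and 322377 to 586029 in the dorsal mutant, and summed heat shock signals reached 32437 to 143983 in the Dif mutant against at most 20256 in any other group. The part of these shifts in the results below was not tested, except where a value is given.

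None of the 5 members passed the test in any comparison. The test was limma's moderated test on log2(signal + 80) with Benjamini-Hochberg adjustment over all 11427 probe sets, called at an adjusted p under 0.05. With E. coli against PBS in wild type, 0 of 5 members were called, where 0.158% of all probe sets were. Against wild type with E. coli, 0 of 5 were called in the Relish mutant (1.88% of all), 0 of 5 in the Dif mutant (2.68%) and 0 of 5 in the dorsal mutant (3.52%). In the 6 other pairs of groups the count was again 0 of 5, where the share of all probe sets called was 1.14% for the Relish mutant against PBS, 2.14% for the Dif mutant against PBS and 2.97% for the dorsal mutant against PBS. It was 1.15% for Relish against Dif, 3.05% for Relish against dorsal and 5.18% for Dif against dorsal. The F test over the 5 groups called none of the 5, and 7.31% of all.

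At an unadjusted p under 0.05, 1 member of 5 passed with E. coli in wild type (4.73% of all probe sets), 2 in the Relish mutant (13.4%), 1 in the Dif mutant (15.7%) and 0 in the dorsal mutant (15.9%). The F test had 1 (23.9%). The 3 mutant comparisons share the wild type E. coli arrays, and so does the comparison with PBS.

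**Figure D1:**
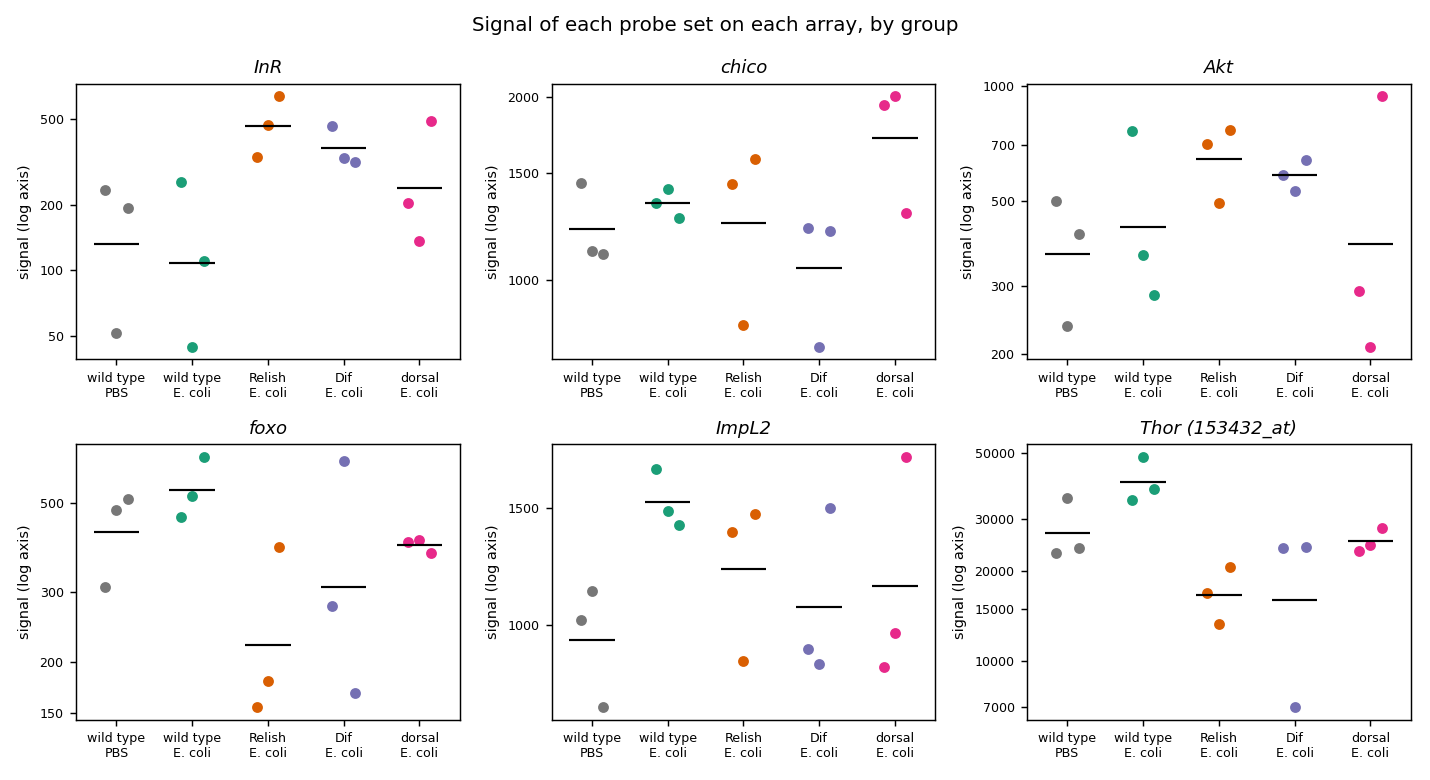
Signal of the 5 member probe sets and of the Thor probe set (y, log axis) on each of the 15 arrays, in 5 groups of 3 (x). Points are arrays and bars are means of the log2 signals; InR is higher on all 3 Relish and all 3 Dif arrays than on any wild type array, and ImpL2 is higher on all 3 wild type E. coli arrays than on any PBS array.

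ImpL2, the secreted binder of insulin-like peptides, was the member with the largest difference between bacteria and PBS. Its signals were 1017, 1124 and 752 with PBS and 1717, 1484 and 1414 with E. coli. Every E. coli array lay above every PBS array, and ImpL2 was the only member of 5 whose groups did not overlap here, as happened for 12.0% of all probe sets. The means were 964 ± 191 and 1538 ± 159 (SD, n = 3 each), a log2 difference of 0.64 (SE 0.29, 95% interval 0.03 to 1.26). The adjusted p was 1.00 and the unadjusted p 0.0408, so the difference did not pass. In the mutants with E. coli the signals were 1382, 882 and 1467.5 (Relish), 920.5, 873 and 1498 (Dif) and 864, 972 and 1789 (dorsal). Each mutant group had 1 or 2 arrays in the PBS range and 1 or 2 in or near the range of wild type with E. coli. The log2 differences from wild type with E. coli were -0.32 in Relish, -0.49 in Dif and -0.39 in dorsal (SE 0.29 each), with adjusted p of 0.699, 0.431 and 0.563. On the mean log2 scale the order of levels was wild type with E. coli, Relish, dorsal, Dif and PBS, and no neighbours in that order differed beyond their spread.

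InR, the receptor, had its lowest levels in both wild type groups and its highest in the Relish and Dif mutants. Its signals were 234, 51.4 and 193 with PBS and 255, 44.5 and 110.3 with E. coli. Replicate 2 of each group was the lowest, the groups overlapped, and 1 array in each lay below the 80 that was added before taking logs. The log2 difference between E. coli and PBS was -0.17 (SE 0.45, 95% interval -1.13 to 0.79). Without wild type PBS replicate 1 it was 0.07, and without wild type E. coli replicate 2 it was 0.17.

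In the Relish mutant InR read 334, 467 and 637, and in the Dif mutant 466, 329.9 and 317.5. All 6 of these arrays lay above all 6 wild type arrays. Against wild type with E. coli the log2 difference was 1.45 in the Relish mutant (SE 0.45, 95% interval 0.49 to 2.41, a 2.74-fold difference on this scale), with an unadjusted p of 0.0052 and an adjusted p of 0.133. In the Dif mutant it was 1.16 (SE 0.45, 95% interval 0.21 to 2.12) with an adjusted p of 0.209. Neither passed. The groups did not overlap for 2 of 5 members in the Relish comparison (InR and foxo), beside 19.4% of all probe sets, and for 2 of 5 in the Dif comparison (InR and chico), beside 22.4%. Over 26 other settings the InR difference in the Relish mutant lay between 1.04 and 1.91, with adjusted p of 0.0660 to 0.393. In the Dif mutant it lay between 0.80 and 1.58, with adjusted p of 0.136 to 0.502.

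Against PBS the InR difference was 1.28 in the Relish mutant (adjusted p 0.214) and 0.99 in the Dif mutant (adjusted p 0.258). InR was the only member whose groups did not overlap between Relish and PBS (20.7% of all probe sets), and InR and Akt were those between Dif and PBS (25.0%). At an unadjusted p under 0.05, InR was the 1 member of 5 that passed in each of these pairs, where 14.1% and 17.9% of all probe sets did. The dorsal mutant read 204, 136 and 491, 2 arrays within the wild type range and 1 above it. Its log2 difference from wild type with E. coli was 0.71 (SE 0.45, adjusted p 0.488). The order of mean levels was Relish, Dif, dorsal, PBS and wild type with E. coli, and no neighbours differed beyond their spread. The summed signal of 11 hemocyte markers also stood highest in the Relish mutant, at 40485 to 49695 against 13808 to 27471 in E. coli-injected wild type, but at 21457 to 30483 in the Dif mutant. Gene by gene, 8 of the 11 were higher in Relish than in E. coli-injected wild type and the rest were lower. Their log2 differences ran from -0.49 to 2.52, and 2 were called higher (1.88% of all probe sets in either direction). Summed digestive tract signals were 794543 to 912036 in Relish, 804594 to 960500 in Dif and 674920 to 800397 in dorsal. They were 517149 to 868131 in E. coli-injected wild type and 287707 to 773956 with PBS. Summed nervous system signals were 2095 to 2390 in Relish and 1278 to 2674 in Dif, against 1504 to 1974 in E. coli-injected wild type. Summed larval fat body signals were 172479 to 306099 in Relish, 162630 to 318238 in Dif and 248622 to 366610.5 in dorsal. In wild type they were 159166 to 196168 with E. coli and 135122 to 188236.5 with PBS. Summed muscle signals were 252203 to 335612 in Relish and 296630 to 336593 in Dif. In wild type these were 244143 to 329604 with E. coli and 188884 to 258886 with PBS. The part of any of these sums in the InR difference was not tested.

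**Figure D2:**
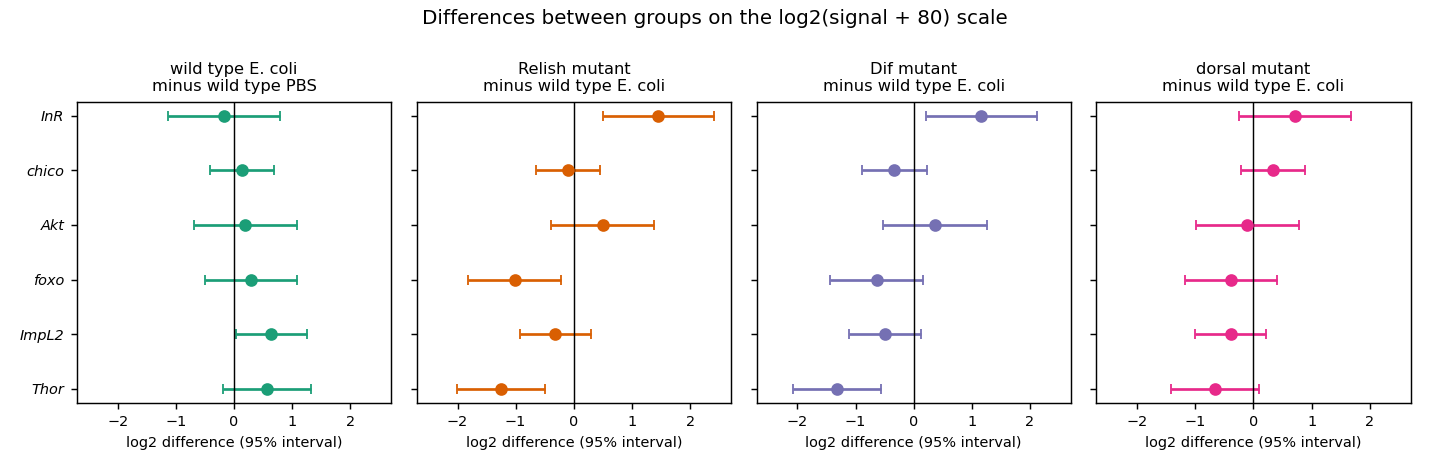
Difference between 2 groups on the log2(signal + 80) scale (x, with 95% intervals from limma) for the 5 members and the Thor probe set (y), in the 4 comparisons with wild type E. coli larvae. The intervals of InR in Relish (0.49 to 2.41) and Dif (0.21 to 2.12), of foxo in Relish (-1.81 to -0.22), of Thor in Relish and Dif and of ImpL2 after E. coli (0.03 to 1.26) leave out 0 before adjustment; no adjusted p passed.

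chico encodes the insulin receptor substrate of the fly, the adaptor between InR and phosphatidylinositol 3-kinase. It varied least of the 5 within groups, with a pooled SD of 0.31 on the log2 scale. Its signals were 1446, 1118 and 1107 with PBS and 1342, 1415 and 1267 with E. coli. The ranges overlapped, and the log2 difference was 0.13 (SE 0.26, 95% interval -0.42 to 0.69). In the mutants it read 1441, 846 and 1581 (Relish), 1220.0, 779 and 1206.5 (Dif) and 1941, 2007 and 1290.5 (dorsal). The 3 Dif arrays all lay below the wild type E. coli arrays, and 2 of the 3 dorsal arrays lay above every other array.

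The log2 difference of chico from wild type with E. coli was -0.10 in Relish, -0.33 in Dif and 0.34 in dorsal (SE 0.26 each), with adjusted p of 0.914, 0.576 and 0.588. Its widest gap was between the extremes of its order, Dif and dorsal, at -0.67 (SE 0.26, 95% interval -1.22 to -0.12, adjusted p 0.152). Those groups did not overlap, and chico was the 1 member of 5 for which that held (24.4% of all probe sets) and the 1 with an unadjusted p under 0.05 there (20.6%). The order of mean levels was dorsal, wild type with E. coli, Relish, PBS and Dif, and no neighbours differed beyond their spread. Without Relish mutant replicate 2, its lowest Relish array, the Relish difference was 0.16.

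Akt, the kinase that holds FOXO in the cytoplasm, ranged widely inside groups. It read 501, 236 and 411 with PBS and 763, 363 and 284.5 with E. coli. The ranges overlapped, at a log2 difference of 0.20 (SE 0.42, 95% interval -0.69 to 1.09). The mutants read 704, 494 and 768 (Relish), 586, 530.0 and 641 (Dif) and 292, 209 and 939 (dorsal). The dorsal mutant held both the lowest and the highest Akt signal of all 15 arrays. Relish was 0.50 above wild type with E. coli (adjusted p 0.675), Dif 0.37 above (adjusted p 0.719), and dorsal differed by -0.10 (adjusted p 0.937; SE 0.42 each). The signs of the smallest of these turned: leaving out PBS replicate 2 put E. coli against PBS at -0.05, and leaving out E. coli replicate 1 put it at -0.16. Dorsal against wild type was 0.08, 0.26 and 0.25 without dorsal replicate 1, dorsal replicate 2 or wild type E. coli replicate 1. The order of mean levels was Relish, Dif, wild type with E. coli, dorsal and PBS, and no neighbours differed beyond their spread. The Dif arrays lay above all PBS arrays, at a log2 difference of 0.57 (adjusted p 0.523).

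foxo, the transcription factor at the end of the branch, had its highest mean in E. coli-injected wild type and its lowest in the Relish mutant. It read 309, 480.2 and 509.8 with PBS and 461, 521 and 650.2 with E. coli, 0.30 higher on the log2 scale (SE 0.38, 95% interval -0.50 to 1.09), with overlap. In the Relish mutant it read 155, 180.1 and 388, every array below every wild type E. coli array. That difference was -1.02 (SE 0.38, 95% interval -1.81 to -0.22), with an unadjusted p of 0.0151 and an adjusted p of 0.225. It did not pass. Over 26 other settings it lay between -1.33 and -0.78, with adjusted p of 0.133 to 0.507.

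The Dif mutant read 276, 634 and 168 for foxo, spanning nearly the whole range of the 15 arrays, and its difference was -0.64 (SE 0.38, adjusted p 0.432). The dorsal mutant read 400.0, 403 and 375, which lay close together and below all 3 wild type E. coli arrays. foxo was the 1 member of 5 without overlap in the dorsal comparison (21.7% of all probe sets), at a difference of -0.39 (SE 0.38, adjusted p 0.684). The order of mean levels was wild type with E. coli, PBS, dorsal, Dif and Relish, and no neighbours differed beyond their spread. The array reads transcript only; whether FOXO protein was in the nucleus was not measured here.

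Thor, a FOXO target that encodes the fly's eIF4E-binding inhibitor of translation, is also known in flies for its part in resistance to bacteria. Probe set 153432_at read 22990, 35278 and 23922 with PBS and 34914, 48601 and 37825 with E. coli. The groups overlapped by 1 array, and the log2 difference was 0.57 (SE 0.36, 95% interval -0.18 to 1.33, adjusted p 1.00). In the mutants with E. coli it read 16928, 13318 and 20744 (Relish), 24077, 6981 and 24252 (Dif) and 23503, 24554 and 28079 (dorsal). All 9 mutant arrays lay below all 3 wild type E. coli arrays, which were shared by the 3 comparisons. Of all probe sets, 19.4% had no overlap in the Relish comparison, 22.4% in the Dif comparison and 21.7% in the dorsal comparison. The share without overlap in all 3 at once was not counted.

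The log2 difference of the Thor probe set from wild type with E. coli was -1.26 in the Relish mutant (SE 0.36, 95% interval -2.01 to -0.50, adjusted p 0.0914). It was -1.32 in the Dif mutant (SE 0.36, 95% interval -2.07 to -0.56, adjusted p 0.0583) and -0.66 in the dorsal mutant (SE 0.36, adjusted p 0.397). None passed. Leaving out single Dif arrays moved the adjusted p of both larger differences across the threshold. Without Dif mutant replicate 2, the lowest of all arrays, the Dif difference was -0.73 (adjusted p 0.199), while the Relish difference stayed at -1.26 with an adjusted p of 0.00660. Without Dif mutant replicate 1 or replicate 3 the Dif difference was -1.61 or -1.62, with adjusted p of 0.0367 and 0.0411. Fitted on the groups compared alone, the Relish difference had an adjusted p of 0.0185 and the Dif difference 0.155. Averaging arrays that share a title number gave 0.308 and 0.207, and leaving out the variance trend 0.164 and 0.119. Of 26 other settings, the Relish difference passed in 2 and the Dif difference in 3. Against wild type with PBS, the differences were -0.68 in Relish (adjusted p 0.410), -0.75 in Dif (0.284) and -0.09 in dorsal (0.943). On the mean log2 scale the order of levels was wild type with E. coli, PBS, dorsal, Relish and Dif. The neighbours dorsal and Relish did not overlap, at a log2 difference of -0.60 for Relish against dorsal (SE 0.36, adjusted p 0.443) that did not pass, and the other neighbours overlapped. The share of all probe sets without overlap is not given for that pair. In the pairs for which it is given, it was 12.0% to 25.0%.

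Across the 15 arrays InR and Akt varied together. Pearson's r of their log2 values was 0.79 (Spearman's rho 0.81), and 0.82 within groups, as a description of 15 arrays that share their scaling and labelling. The other pairs of members had r between -0.50 (InR and foxo) and 0.48 (Akt and ImpL2). InR and foxo had an r of -0.03 within groups.

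Both InR and Akt tended to be higher on arrays with a higher 5′ to 3′ ratio of the control transcripts. With the mean log2 ratio of actin, eIF-4a and GAPDH, r over the 15 arrays was 0.56 for InR (rho 0.50) and 0.52 for Akt (rho 0.44). Leaving out the 2 arrays farthest from the median ratio gave 0.68 and 0.75. The median r over all tested probe sets was 0.04, and 95.6% of them had a smaller r than InR and 93.9% a smaller r than Akt. chico went the other way at -0.45, and foxo was at -0.11, ImpL2 at 0.12 and Thor at -0.30. The 5′ signal was 27.5%, 33.0% and 35.5% of the 3′ signal on the Dif arrays, 13.0%, 36.6% and 30.5% on the Relish arrays and 31.1%, 20.2% and 23.5% in E. coli-injected wild type. On the dorsal arrays it was 19.2%, 17.0% and 28.9%, and with PBS 31.3%, 16.4% and 18.8%. Dorsal replicate 3, with the highest dorsal ratio, also had the highest InR and Akt and the lowest chico of its group. Dorsal replicates 1 and 2 share a title number. The part of the ratio or of the shared number in that spread was not tested. With the ratio as a covariate, InR was 1.46 higher in the Relish mutant (adjusted p 0.0660), 0.85 higher in Dif (adjusted p 0.338) and 0.89 higher in dorsal (adjusted p 0.260). Akt in dorsal was 0.01 with the covariate. The part of the ratio beyond these values was not tested.

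**Figure D3:**
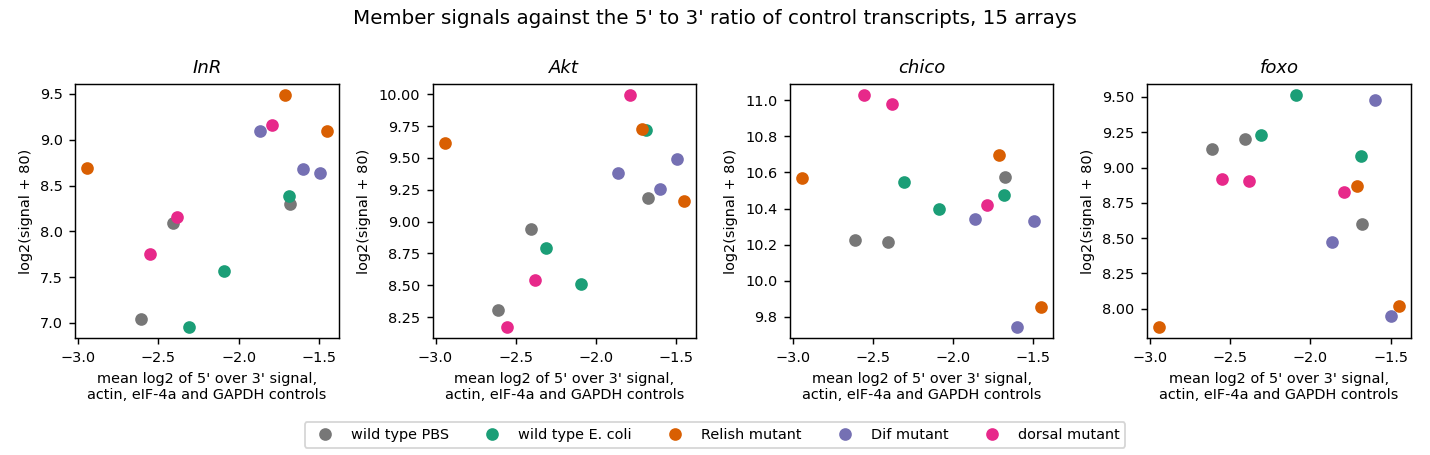
log2(signal + 80) of InR, Akt, chico and foxo (y) against the mean log2 ratio of 5′ to 3′ signal of 3 control transcripts (x) on the 15 arrays, coloured by group. InR (r 0.56) and Akt (r 0.52) tended to be higher on arrays with a higher ratio, and chico (r -0.45) tended to be lower. Single arrays departed from this, among them Relish mutant replicate 1 at the left edge.

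Genes whose pattern over the 15 arrays was most like a member's were named by Pearson's r, 3 per member, as a description with no test. For InR these were Usp47 (0.92), CG3168 (0.91) and cass (0.90), and for Akt Nrg (0.90), IntS1 (0.89) and raw (0.89). For chico they were Galphas (0.87), CG15818 (0.85) and Dr (0.85). For foxo they were CG4866 (0.88), kek3 (0.83) and TwdlL (0.82), and for ImpL2 CG13698 (0.86), CG42240 (0.81) and Jra (0.80). For the Thor probe set they were Arl8 (0.87), Pi3K68D (0.86) and Mf (0.85). Within groups the r of these 18 genes with their members stayed between 0.69 and 0.94. Each was picked as the highest among the tested genes with a single symbol, so these values are a description only.

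The members were then set beside 78 other genes of the pathway, of which 49 were tested, each by its brightest tested probe set. With E. coli in wild type 0 of 49 were called (0.158% of all probe sets), and in the Relish mutant 0 of 49 (1.88%). In the Dif mutant 1 of 49 was lower (2.68% of all in either direction), and in the dorsal mutant 1 of 49 was higher and 2 were lower (3.52%). The median log2 difference of the 49 was 0.11, 0.08, -0.05 and 0.08 in these 4 comparisons, beside 0.00, 0.09, 0.11 and 0.10 over all probe sets tested.

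Of the insulin-like peptides and their binding proteins, 4 of 11 were tested, ImpL2 included, and none was called. Ilp2, an insulin-like peptide of brain neurons, read 529, 108 and 115 in E. coli-injected wild type and 180, 252 and 473 in the Relish mutant, a log2 difference of 0.36 with overlap. Ilp8, a relaxin-like peptide that delays maturation when tissue is damaged, read 633, 432.5 and 751 in E. coli-injected wild type and 420, 585 and 209 in the dorsal mutant, a difference of -0.55.

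Of the receptor, adaptor and phosphatidylinositol kinase genes, 7 of 13 were tested, InR, chico and Akt included. Pi3K59F, the class III kinase Vps34 of endosomes and autophagy rather than the kinase that InR activates, read 313, 158 and 270.3 in E. coli-injected wild type and 735, 672 and 608 in the dorsal mutant. It rose by 1.23 on the log2 scale (SE 0.33, adjusted p 0.0455), with no overlap. Its groups stood in the order dorsal, Dif, Relish, wild type with E. coli and PBS. The call was lost in 17 of 26 other settings, 11 of which left out 1 array. It held without PBS replicates 1 or 2 and without Dif replicates 1 or 2. It was lost without any other single array, with adjusted p of 0.050 to 0.207. Averaging arrays that share a title number took the adjusted p of Pi3K59F to 0.275. melt, which recruits regulators of the pathway to the membrane, read 562, 43.3 and 385 with PBS and 539, 473 and 378 with E. coli, a difference of 0.70 that was -0.02 without PBS replicate 2.

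**Figure D4:**
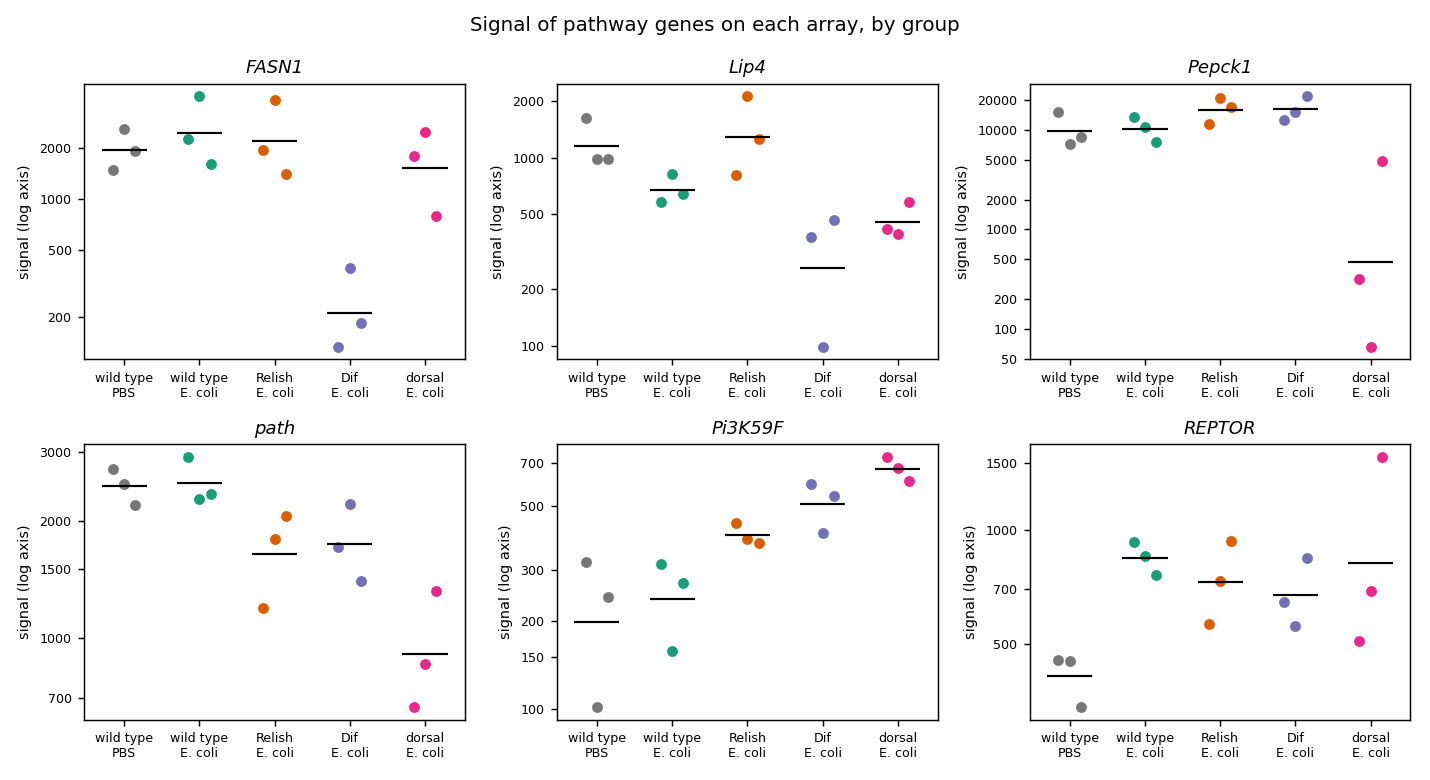
Signal (y, log axis) on each of the 15 arrays, by group (x), of the 5 pathway genes called by the F test and of REPTOR, which was not called. Points are arrays and bars are means of the log2 signals; FASN1 is lowest on all 3 Dif arrays, Pepck1 on all 3 dorsal arrays, and REPTOR is higher on all 3 wild type E. coli arrays than with PBS.

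In the TOR and growth list 19 of 27 genes were tested, foxo included. path, an amino acid transporter that promotes growth, read 2915, 2266 and 2343 in E. coli-injected wild type and 662, 858 and 1318 in the dorsal mutant. It fell by 1.38 on the log2 scale (SE 0.26, adjusted p 0.00619), and the dorsal arrays lay below all but 1 of the other 12. That was Relish mutant replicate 1, at 1194. Averaging arrays that share a title number took its adjusted p to 0.122. REPTOR, a transcription factor that TOR holds back, read 454, 449.7 and 340.1 with PBS and 931.5, 853 and 758 with E. coli. All E. coli arrays lay above all PBS arrays, at a difference of 0.91 (SE 0.33) with an adjusted p of 0.792. Lst8, a subunit of both TOR complexes, was 0.79 above wild type with E. coli in the Dif mutant, not called, beside a low wild type array of 38.5.

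In the translation initiation list 10 of 14 genes were tested and none was called in the 4 main comparisons. eIF4E3, a cap-binding protein of the eIF4E family, read 219, 201 and 277 in E. coli-injected wild type and 554, 539.5 and 478 in the dorsal mutant, a difference of 0.96 without overlap that was not called. Its Dif arrays read 136, 61.2 and 315, and the difference of -1.40 for Dif against dorsal (SE 0.49, adjusted p 0.110) was not called either. The 1 gene of this list called in that pair was eIF4G1, the scaffold of the cap-binding complex, at 1267 ± 313 in Dif and 2279 ± 396 in dorsal (SD, n = 3 each). For Dif against dorsal this was -0.82 on the log2 scale (SE 0.22, adjusted p 0.0359), where 5.18% of all probe sets were called. eIF4G1 was named after its values were seen. Lk6, the kinase that phosphorylates eIF4E, read 2132, 1965 and 1530 in E. coli-injected wild type and 3242, 2544 and 3398 in the Dif mutant, a difference of 0.69 without overlap that was not called. eIF4E4 was 0.77 higher in the Relish mutant, from signals of at most 315.

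Of the reported FOXO targets and fasting genes 16 of 22 were tested, InR included, and 3 were called by the F test. FASN1, fatty acid synthase, read 2272, 4061 and 1607 in E. coli-injected wild type and 134, 389 and 184 in the Dif mutant. It fell by 3.09 on the log2 scale (SE 0.44, adjusted p 0.000568), and every Dif array lay below the other 12. Pepck1, an enzyme of gluconeogenesis, read 13460, 10750 and 7598 in E. coli-injected wild type and 315, 66.5 and 4921 in the dorsal mutant. It fell by 3.98 (SE 0.78, adjusted p 0.00818), with all 3 dorsal arrays below the other 12 and far apart from each other. Without dorsal replicate 3 the difference was -5.44. Averaging arrays of a shared title number took its adjusted p to 0.157, and fitting on the groups compared alone took it to 0.0872. The Dif group also held the highest summed heat shock signals and the dorsal group the highest summed glue signals given above. Summed larval fat body signals of all dorsal arrays also lay above those of every wild type array. The part of these sums in the fall of FASN1, or of path and Pepck1, was not tested.

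Lip4, a lipase gene raised by FOXO, read 1615, 987 and 977 with PBS, 578.5, 815 and 642.5 with E. coli, and 379, 99.5 and 465 in the Dif mutant. It was called by the F test (adjusted p 0.0146), but in none of the 4 main comparisons. Its log2 difference between Dif and PBS was -1.80 (adjusted p 0.0229), and between Relish and Dif it was 1.95 (adjusted p 0.0183). Akh, the hormone that mobilises stores, read 524, 862 and 887 with PBS and 322, 279.5 and 284 with E. coli. The groups did not overlap, and the difference of -1.13 (SE 0.40) had an adjusted p of 0.757. In the dorsal mutant Akh read 1152, 849 and 722, and in the Dif mutant 302, 246 and 282, a called difference of -1.45 for Dif against dorsal (SE 0.40, adjusted p 0.0417). In that pair 1 of the 16 tested genes of this list was called higher in Dif (Pepck1, by 4.61) and 2 lower (Akh, and FASN1 at -2.44), where 5.18% of all probe sets were called. The F test did not call Akh (adjusted p 0.0604). In the median of its 16 tested genes this list stood at 0.35 with E. coli in wild type, at -0.15 in Relish, -0.47 in Dif and -0.09 in dorsal. These 4 values share the wild type E. coli arrays. Against PBS the median was 0.16 in Relish, -0.03 in Dif and 0.26 in dorsal, beside 0.09, 0.13 and 0.12 over all probe sets. The list was not sorted by the direction in which FOXO or fasting moves its genes.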

How the data were processed

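The authors deposited linear-scale intensities, with 1 signal for each probe set, made with Microarray Suite (MAS) 5.0 and global scaling, per the labels. The trimmed mean, leaving out 2% at each end, was 800.2 to 800.25 on every array. Arrays have no sequencing depth, and 3 arrays a group limit the precision. Gene symbols came from the platform annotation (12443 probe sets with 1 symbol, 327 with several, 1196 with none). The genome build behind the array design is not given in the sources used here, and coordinates are left out.

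Of the 14010 probe sets, 44 controls were left out, and 2539 others failed the filter of a signal of 160 on 3 arrays. log2(signal + 80) was fitted on all 15 arrays with a mean per group in limma 3.58.1 (R 4.3.3, linear fit with eBayes moderation and a variance trend, 10 residual degrees of freedom). Fold changes on this scale understate changes of low signals. The spread behind each p-value is that between pools, which may be in part technical. The fit was tested on simulated data for Relish against wild type with E. coli. It recovered 17 of 80 changes of log2 1 (21.25%), 38 of 55 of log2 2 and 62 of 65 of log2 3. A member that did not pass at a difference near 1 may therefore still differ.

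Groups came from source names and treatment text. The members and gene lists were chosen with earlier results of these data known. Genes named are the members, pathway genes called in a main comparison or the F test (otherwise the largest difference of a list), the 3 genes most like each member, and Rel, Dif and dl. Alternatives were the pseudocount (16 or 200), no filter or one at 320, quantile normalization, no variance trend, array weights, averaging arrays of 1 title number, a replicate block, leaving out each array, and fitting only the groups compared. The 5′ to 3′ ratio as a covariate was chosen after seeing the data.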

Additional observations from a re-analysis of the deposited data

How the results depend on the processing

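The count of members called was 0 in each comparison under every alternative run, 154 values in all, and none of 520 single values of the 5 members had an adjusted p under 0.05 (lowest 0.0660). Direction turned in 9 of the 520. Leaving out 1 array at a time gave -0.55 to 0.17 for InR and -0.16 to 0.45 for Akt with E. coli against PBS, -0.65 to 0.26 for Akt in the dorsal mutant, -0.26 to 0.16 for chico in the Relish mutant and -0.019 to 1.17 for melt with E. coli. With the 5′ to 3′ ratio as a covariate Akt in the dorsal mutant was 0.011. The cause was not tested. Thor in the Dif mutant passed with array weights (-1.27, adjusted p 0.0416). Array weights ran from 0.464 (dorsal replicate 3) to 2.20. Quantile normalization moved the median of all probe sets in the Dif comparison from 0.11 to 0.01, and left InR there at 1.04 (adjusted p 0.266). Deviations of arrays of the same replicate number, over pairs from the 5 groups, correlated at -0.11 to 0.34. That range does not tell whether the PBS and E. coli arrays of wild type were paired by number, which was not tested. With the replicate block the members called remained 0 in each comparison; InR in the Relish mutant had an adjusted p of 0.0945 and Thor in the Dif mutant 0.0607.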
